A study of Homo sapiens with 9 samples.

Results

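H3K4me3 was compared between HEL cells with a METTL14 knockout (METTL14-KO, 2 libraries) and HEL cells given a non-targeting guide as control (NTC, 3 libraries). The mark was mapped by CUT&RUN, in which an antibody leads a nuclease to the modified histone so that the DNA beside it is cut free and sequenced. HEL is an established human erythroleukemia line with erythroid and megakaryocytic features, and both groups were grown in the same medium. Both carried a lentiviral CRISPR-Cas9 construct, so that they differed in the guide alone as far as the labels and methods say. The cells were transduced populations and not described as clones, and which METTL14 guide was used for these libraries was not stated. The 5 libraries are 5 of the 9 in the series, and their peak lists hold 73951 of its 99358 peaks. Peaks of the 5 lists that shared at least 1 bp were merged into 28477 regions on hg19, against 30404 when all 9 libraries were merged. A peak's signal is coverage scaled by a yeast spike-in, and a region's signal is the sum of a library's peaks in it, or 0 where the library had none. The labels do not say whether replicates came from separate cultures, so p-values measure only the spread between these libraries, which may be technical. The lists hold no expression, so the loss of METTL14 itself cannot be checked in them. In a population, a mark lost from some of the cells and a mark lowered in every cell cannot be told apart.

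METTL14 is the partner of the catalytic subunit METTL3 in the complex that writes N6-methyladenosine (m6A) on mRNA, and WTAP is the adaptor that holds the pair in nuclear speckles. H3K4me3 is a histone mark of active promoters. It is written by the SETD1A, SETD1B and KMT2 (MLL) methyltransferases, which share the subunits WDR5, RBBP5, ASH2L and DPY30, and in red cell precursors it lies over the promoters of genes such as those for heme synthesis and for the factors GATA1 and KLF1. The question of the comparison was what happens to this mark when an m6A methyltransferase subunit is lost.

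The study's guide list holds 4 guides against METTL14, which define the perturbation and are printed here with the PAM, the bases that Cas9 needs beside the target, in capitals. All 4 matched the plus strand of hg19 within METTL14 (chr4:119606547-119636588, plus strand, 11 exons).
METTL14 guide 1, chr4:119606712-119606731: tccgggagcggcagaagttaCGG
METTL14 guide 2, chr4:119615606-119615625: ttgaagaatatcctaaactgAGG
METTL14 guide 3, chr4:119609084-119609103: gctgaaagtgccgacagcatTGG
METTL14 guide 4, chr4:119606686-119606705: gaacatggatagccgcttgcAGG
Guides 1 and 4 lie in exon 1, guide 3 in exon 2 and guide 2 in exon 6, and guide 4 reaches past the coding part of its exon. Guides 1 and 4 also lie inside the H3K4me3 region over the METTL14 start, chr4:119606242-119607406. In that region the NTC libraries had signals of 3837, 3338 and 5174, and both METTL14-KO libraries were listed at 0. The METTL14 promoter was thus marked in every NTC library and in no METTL14-KO library (log2 change -7.05, SE 0.23, adjusted p = 1.64e-05, limma). Where one group is listed at 0, the size of a log2 change is set by the pseudocount of 30.8 and is not a fold.

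The 2 promoters printed here stand for the exceptions to the loss described further on: ALG9 kept its peak, with higher values, and CD274 had one in the METTL14-KO libraries alone. Each is hg19 sequence from 250 bases before to 50 after the annotated start, with CpG sites, the pairs that CpG islands are rich in, in capitals.
ALG9, chr11:111742256-111742555, minus strand: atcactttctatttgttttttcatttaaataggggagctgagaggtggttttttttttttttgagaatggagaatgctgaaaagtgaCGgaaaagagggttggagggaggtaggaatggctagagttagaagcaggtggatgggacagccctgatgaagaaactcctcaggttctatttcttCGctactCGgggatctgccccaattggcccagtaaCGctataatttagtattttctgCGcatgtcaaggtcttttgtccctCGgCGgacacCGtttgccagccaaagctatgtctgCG
CD274, chr9:5450292-5450591, plus strand: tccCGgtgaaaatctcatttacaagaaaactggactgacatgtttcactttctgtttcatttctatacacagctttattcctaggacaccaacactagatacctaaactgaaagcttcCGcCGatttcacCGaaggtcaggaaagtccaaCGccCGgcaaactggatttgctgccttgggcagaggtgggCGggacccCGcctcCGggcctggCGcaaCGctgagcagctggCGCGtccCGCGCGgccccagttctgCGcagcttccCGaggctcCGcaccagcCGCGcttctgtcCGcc
The windows hold 9 and 22 CpG sites and have a GC content of 45.3% and 57.3%, in that order. Over gene sets, the median was 24 CpG sites in the 1110 genes marked in all 3 NTC and both METTL14-KO libraries, 29 in the 6208 genes marked in NTC but in neither METTL14-KO library, 24 in the 980 genes marked in both METTL14-KO and no NTC library, and 23 in all 19856 protein-coding genes with a sequence. The median GC content of these sets was 63.0%, 67.7%, 62.3% and 63.7%. The letters CCNCNCCC, the core that KLF factors recognise, were found on either strand in 66.9%, 79.9%, 67.6% and 69.7% of these sets, in the same order. The letters AGATAA, which GATA1 binds, were found in 4.41%, 4.53%, 4.80% and 7.16%. The ETS family's motif CCGGAAG was found in 27.5%, 17.7%, 24.9% and 14.2%. The lost set thus held the highest GC content and the most matches to the C-rich CCNCNCCC, and the 2 sets with a METTL14-KO peak the most CCGGAAG matches, which describes letters in these windows and not binding.

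The METTL14-KO libraries had fewer, narrower and weaker H3K4me3 peaks than any NTC library. NTC libraries 1, 2 and 3 had 21831, 21941 and 21724 peaks, and METTL14-KO libraries 1 and 2 had 5286 and 3169. The means were 21832 ± 109 (SD, n = 3) and 4227.5 ± 1497 (SD, n = 2), so that METTL14-KO had 19.4% of the NTC number, replicate 1 alone 24.2% and replicate 2 alone 14.5%. The groups did not overlap, and the gap between the 2 METTL14-KO libraries was far wider than that among the NTC libraries. Peaks covered 17.0, 17.2 and 17.2 Mb in NTC against 2.40 and 1.43 Mb in METTL14-KO, or 11.1%. Median width was 658, 659 and 670 bp against 345 and 349 bp, or 52.4%. Median signal per peak was 1973, 1978 and 2381 against 1044 and 922, or 46.6%. When peaks weaker than the NTC median were dropped, METTL14-KO had 9.75% of the NTC number and 6.85% of the covered bases. For width the 2 METTL14-KO libraries were alike, whereas their numbers of peaks were not. For each of these measures the exact permutation test gave p = 0.2, two-sided, which is the smallest that 10 splits of 5 libraries allow.

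The METTL14-KO lists were more concentrated in promoters and in a few strong peaks than the NTC lists. The METTL14-KO lists include peaks in regions without an NTC peak (47.0% in replicate 1 and 56.1% in replicate 2). Peaks within 1 kb of the start of a protein-coding gene were 57.6%, 57.0% and 56.1% of the NTC lists and 79.3% and 79.4% of the METTL14-KO lists. The strongest 1% of peaks held 8.56%, 8.18% and 7.88% of a library's signal in NTC, and 21.7% and 24.4% in METTL14-KO. The single strongest peak had 492834, 435097 and 400376 in NTC and 452672 and 204092 in METTL14-KO. The one in METTL14-KO replicate 2 lay between genes, at chr3:144517869-144518472, so that these shares do not describe promoters alone. Widths in all lists run from 150 to 2000 bp, and peaks wider than 1800 bp were 4.33% ± 0.177 (SD, n = 3) of the NTC lists and 0.397% ± 0.0265 (SD, n = 2) of the METTL14-KO lists. Signal values within a library were whole multiples of a step, read as the worth of 1 fragment, of 1.32, 1.30 and 1.14 in NTC and 0.440 and 0.416 in METTL14-KO. The lowest listed peak equalled 24, 24 and 28 steps in NTC and 70 and 74 steps in METTL14-KO. In calibrated units the lowest peak was 31.6, 31.3 and 32.0 in NTC and 30.8 in both METTL14-KO libraries. The lowest listed peak was thus alike between the groups in calibrated units and differed in steps, and the part of this in the lower peak number was not tested. Depth is unknown for every library.

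**Figure D1:**
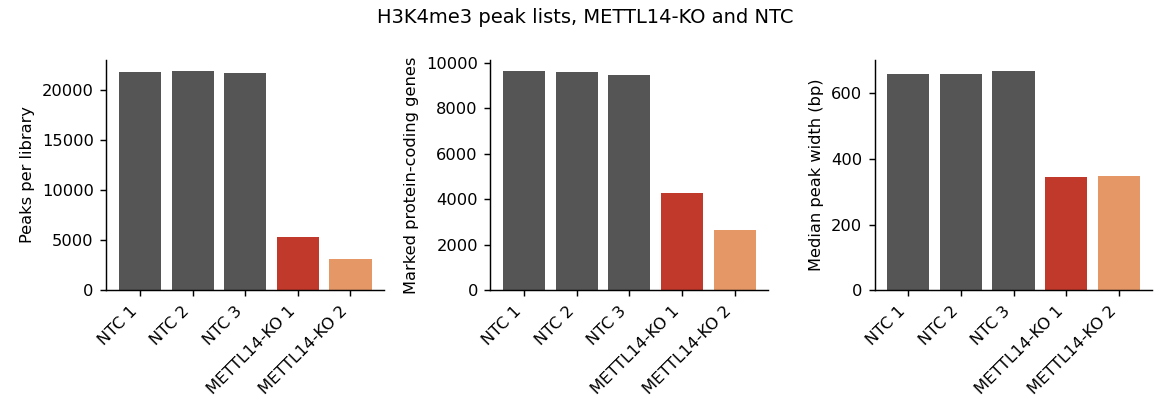
Number of H3K4me3 peaks, number of protein-coding genes with a promoter peak, and median peak width in bp in each of the 3 NTC and 2 METTL14-KO libraries, each bar a library. The METTL14-KO libraries lie below every NTC library in all 3 panels, with 5286 and 3169 peaks against 21724 to 21941.

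Most NTC regions had no METTL14-KO peak. Of the 16232 regions called in all 3 NTC libraries, 14159 (87.2%) had a peak in neither METTL14-KO library, 893 (5.50%) had one in both, and 1180 (7.27%) had one in a single library, which was replicate 1 for 1107 and replicate 2 for 73. Counted library by library, 87.7% lacked a peak in METTL14-KO replicate 1 and 94.0% in replicate 2. The regions called in all 3 NTC libraries were 77.9% to 78.7% of each NTC library's regions, which is the sharing between control libraries that these losses stand beside. When each library was cut to its 3169 strongest peaks, the number in the smallest list, 55.7% of NTC regions had no METTL14-KO peak.

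Loss went with NTC signal. When the NTC regions were split into deciles of mean NTC signal, 99.8% of the lowest decile and 38.2% of the highest (1624 regions each) had no METTL14-KO peak. Replicate 1 had a peak at 0.185% of the lowest decile and at 59.6% of the highest, and replicate 2 at 0% and 41.6%. In decile 9 the shares were already down to 28.6% and 11.8%. A peak was therefore kept more often at strong NTC regions in both METTL14-KO libraries, although replicate 2 lacked one at most of the highest decile, and 621 regions of the highest decile still had no METTL14-KO peak in either. Among those 621 regions the median observed-to-expected CpG ratio in the central 500 bp was 0.445, against 0.689 in the 640 regions of the same decile with a peak in both METTL14-KO libraries, and 70.9% against 80.6% were protein-coding promoters.

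**Figure D2:**
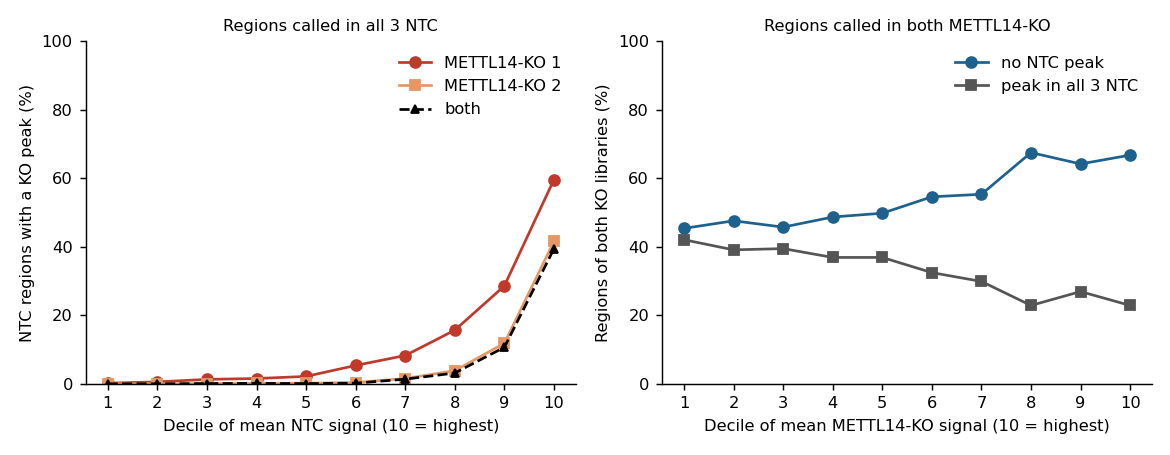
Share of regions called in all 3 NTC libraries that had a peak in METTL14-KO replicate 1, replicate 2 or both, in percent, by decile of mean NTC signal (left), and share of regions called in both METTL14-KO libraries with a peak in no or in all 3 NTC libraries, by decile of mean METTL14-KO signal (right). On the left the share rises from 0.185% to 59.6% in replicate 1 and from 0% to 41.6% in replicate 2, and on the right the share with no NTC peak rises from 45.4% to 66.8%.

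The loss also differed with the kind of region. A METTL14-KO peak was missing at 83.0% of NTC regions over protein-coding promoters (8111 of 9778), 89.3% over other promoters, 97.4% in exons, 98.1% in introns (2753 of 2806) and 88.9% between genes. Within the highest decile of NTC signal, the loss was 35% at protein-coding promoters and 70.3% in introns (111 regions). Regions kept in both METTL14-KO libraries had a median width of 1629 bp, regions kept in 1 of them 1442 bp, and lost regions 896 bp. Their median NTC signals were 13889, 8303 and 2436. Kept, singly kept and lost regions were protein-coding promoters in 81.6%, 79.5% and 57.3% of cases and intronic in 2.80%, 2.37% and 19.4%, and their median CpG ratios were 0.703, 0.725 and 0.50. Width, signal and promoter share thus fell in step from kept to lost regions, while the CpG ratio was lowest in lost and highest in singly kept regions. Among protein-coding promoters alone the gap was smaller, at 0.725 in kept and 0.649 in lost regions. In the promoter windows described above the number of CpG sites went the other way, with a median of 29 at lost and 24 at kept genes. The direction thus depended on the measure and window. These are descriptions of regions and not of replicates.

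Where the peak was kept it was smaller. At the 893 regions with a peak in each of the 5 libraries, median signal was 13376, 12976 and 15331 in NTC and 1661 and 821 in METTL14-KO. The METTL14-KO mean was 9.57% of the NTC mean at the median region (interquartile range 6.22% to 14.8%). The difference in median log2 signal corresponded to 8.43% of NTC (exact permutation p = 0.2, the smallest possible). The called part of a region shrank from a median of 1499, 1503 and 1524 bp to 422 and 306 bp. Of the 893 regions, 863 (96.6%, a share that is also the background of this count) were lower in both METTL14-KO libraries than in every NTC library, 25 overlapped and 5 were higher. Divided by each library's step, the METTL14-KO signal was 24.7% of NTC, so that the size of the drop, though not its direction, moved with the scale.

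**Figure D3:**
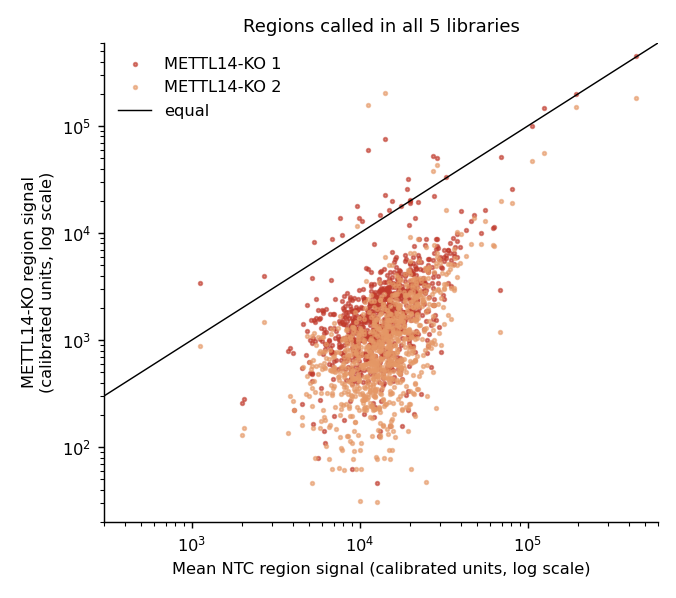
Signal of each METTL14-KO library against mean NTC signal, in calibrated coverage units on log axes, at the 893 regions called in all 5 libraries, with 1 point per region and METTL14-KO library. Most points lie below the line of equal signal, and 863 regions have both METTL14-KO libraries under every NTC library, against 5 with both above.

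All 5 exceptions with higher METTL14-KO signal can be named. Of these, 3 lie close together on chromosome 11. ALG9, an ER mannosyltransferase of N-glycosylation (chr11:111741301-111743127), had 26031, 27387 and 33282 in NTC and 49976 and 43264 in METTL14-KO. The start shared by CFAP68 and FDXACB1 (chr11:111748953-111750827) had 25142, 26193 and 31086 against 53004 and 38188. DIXDC1 (chr11:111797170-111798445), a DIX-domain protein of Wnt signalling, had 8511, 9212 and 11178 against 17901 and 11772. None of these passed the test across all regions, with adjusted p of 0.414, 0.389 and 0.194 (limma), and without METTL14-KO replicate 2 the values were 0.0257, 0.0115 and 0.0159, with the spread then taken from the NTC libraries alone. The other 2 lie outside promoters. An intergenic region, chr3:144517869-144518472, had 13282, 21227 and 7668 in NTC and 75766 and 204092 in METTL14-KO (log2 change 3.26, SE 0.94, adjusted p = 0.0294). An intronic region, chr19:43167389-43167885, had 13106, 16022 and 4680 against 59362 and 158716 (log2 change 3.28, SE 0.92, adjusted p = 0.0274). These were the only 2 regions with an NTC peak that passed the test as higher, and in each the METTL14-KO value was higher in replicate 2 than in replicate 1.

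Among the kept regions at promoters with the highest METTL14-KO signal, the remaining 2 were lower without passing the test. RANBP6, an importin-family gene (chr9:6014687-6016619), had 46217, 47281 and 51158 in NTC and 14792 and 13972 in METTL14-KO (log2 change -1.74, SE 0.64, adjusted p = 0.0628). PRDM10, a zinc-finger transcription factor (chr11:129872133-129874102), had 39104, 40591 and 41105 against 16075 and 9734 (log2 change -1.68, SE 0.60, adjusted p = 0.0571). The groups did not overlap at either start. RANBP6 passed without NTC replicate 1 (0.0427) or NTC replicate 2 (0.0393). Leaving out a METTL14-KO library gave 0.000527 and 0.000843 for RANBP6 and 0.000213 and 0.00153 for PRDM10, but the spread then comes from the NTC libraries alone and the remaining METTL14-KO library is assumed to vary like them. After centring on the regions shared by all 5 libraries, both changes turned positive, to 1.79 and 1.85.

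Of 22063 regions with a peak in at least 2 libraries, 16010 (72.6%) were lower and 1463 (6.63%) higher in METTL14-KO at an adjusted p under 0.05 (limma). Of the lower regions, 14122 were among the 14159 lost ones, 1035 among the 1180 kept in 1 METTL14-KO library and 853 among the 893 kept in both. Of the higher regions, 1461 were called in both METTL14-KO libraries and in no NTC library. Such a region enters the test only through the METTL14-KO libraries, so its call follows from the filter. In the same way a lost region enters only through the NTC libraries and is listed at 0 in both METTL14-KO libraries. Its call is thus no support beyond the missing peaks, and the shares of lower regions largely restate them. Of the 20584 regions with a peak in at least 1 NTC library, 16010 were lower and 2 higher. This count leaves out the regions called in METTL14-KO alone by definition and keeps every lost region, so that its imbalance largely follows from the filter. At promoters of protein-coding genes, 8141 of 10746 regions (75.8%) were lower and 1025 (9.54%) higher.

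At genes marked in both groups, METTL14-KO peaks covered a narrow span around the start. Such a gene may be marked at different regions in the 2 groups, as RUNX1 and UROD were, so that not all of these METTL14-KO peaks are kept NTC peaks. At the 1110 genes marked in all NTC and both METTL14-KO libraries, coverage by a peak was highest 200 to 300 bp before the start in NTC, where 74.8%, 75.1% and 75.5% of genes were covered. In METTL14-KO it was highest 50 bp before the start, with 60.7% and 48.1% of genes covered. At 500 bp before the start 65.9%, 64.8% and 65.6% of these genes were covered in NTC but 18.6% and 12.2% in METTL14-KO. After the start a peak covered on average 709, 710 and 715 bp in NTC and 215 and 162 bp in METTL14-KO. The flanks thus lost more coverage than the start itself in both METTL14-KO libraries. At the 980 genes marked in METTL14-KO alone, coverage was also highest 50 bp before the start, at 73.6% and 55.0%.

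**Figure D4:**
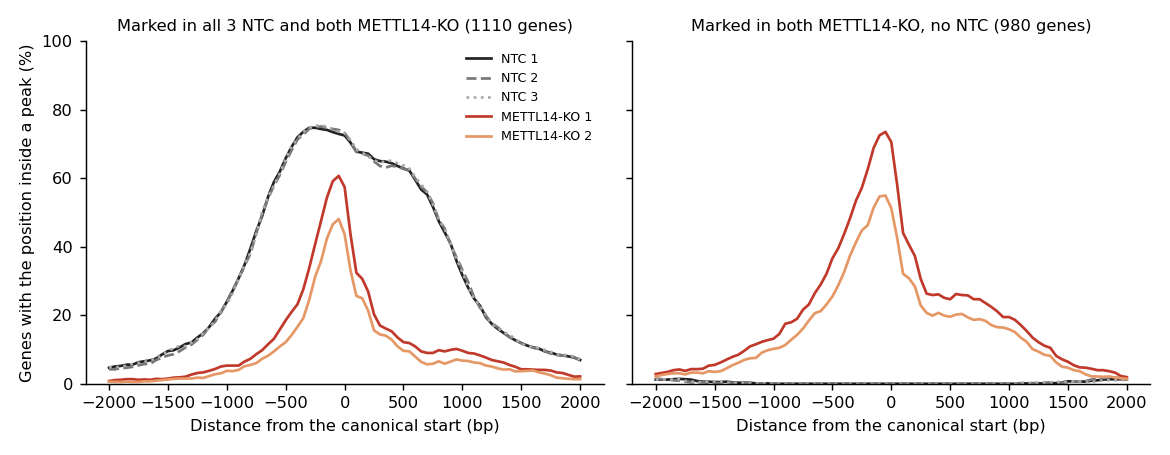
Share of genes covered by an H3K4me3 peak, in percent, against distance from the annotated start in bp, for each library, at the 1110 genes marked in all NTC and both METTL14-KO libraries (left) and at the 980 genes marked in both METTL14-KO libraries and no NTC library (right). On the left the METTL14-KO profiles are lower and narrower, with maxima of 60.7% and 48.1% against 74.8% to 75.5% in NTC.

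Counted by genes, METTL14-KO marked 4263 and 2662 protein-coding genes within 1 kb of a start, against 9651, 9590 and 9437 in NTC. That is 36.2% of NTC, with 44.6% for replicate 1 and 27.8% for replicate 2 (means 3462.5 ± 1132, SD, n = 2, and 9559 ± 110, SD, n = 3; exact permutation p = 0.2, the smallest possible). Of 20149 genes, 8492 carried a promoter peak in every NTC library. Among them, 6228 (73.3%) had no promoter peak in either METTL14-KO library, 1153 (13.6%) had one in a single library and 1111 (13.1%) had one in both. The number of marked genes thus fell by a smaller share than the number of peaks. These values depend on which peaks are counted. With the 3169 strongest peaks of each library METTL14-KO marked 99.7% as many genes as NTC and 47.5% of NTC-marked genes lacked a METTL14-KO peak, and when peaks weaker than the NTC median were dropped the values were 12.8% and 92.9%. A gene counts as marked by a peak at any of its starts, so that a gene may count as kept while its strongest region is lost.

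The defining genes of the line were checked first. Of 18 erythroid and megakaryocytic markers, 7 were marked in all 3 NTC libraries (GATA1, KLF1, TAL1, LMO2, EPOR, GFI1B and GP9), and no METTL14-KO library had a promoter peak at any of them. Of 36 markers of T cells, B cells, hepatocytes, neurons and fibroblasts, 27 had no NTC peak, 8 were marked in all 3 NTC libraries and none had a METTL14-KO peak. The control libraries carried the mark at part of the line's own genes. Over all protein-coding genes 42.1% were marked in all 3 NTC libraries, so the 7 of 18 do not set the line's markers apart. Of all genes marked in NTC, 73.3% had no METTL14-KO peak. Of the line markers not marked in every NTC library, FLI1 and ITGA2B had a peak in both METTL14-KO libraries and TFRC in 1.

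Each list is read here beside all protein-coding genes, of which 73.3% of those marked in NTC had no METTL14-KO peak, 13.1% had one in both libraries, and 75.8% of promoter regions were lower. Of 20 erythroid transcription factors, 15 were marked in all 3 NTC libraries, of which 9 (60%) had no METTL14-KO peak, 4 had one in a single library (LDB1, BCL11A, MYB and KLF3) and 2 in both (RUNX1 and STAT5B). In the test, 13 of 17 regions were lower and 1 was higher. The share lost was below that over all genes. GATA1, the master regulator of the lineage (chrX:48643545-48645482), had 2638, 2788 and 2982 in NTC and was listed at 0 in both METTL14-KO libraries (log2 change -6.52, SE 0.14, adjusted p = 6.86e-06). KLF1, which switches on globin and heme genes (chr19:12996961-12998527), had 10348, 8488 and 11190 against 0 and 0. MYB, a factor of proliferating progenitors (chr6:135500528-135502100), had 10577, 12092 and 12230 against 336 and 0 (log2 change -6.78, SE 1.13, adjusted p = 0.00454). MYB thus kept a small peak in replicate 1 alone. RUNX1, which specifies blood stem cells and megakaryocytes, went both ways. Its region at chr21:36261609-36261896 had 966, 622 and 732 in NTC and 0 in both METTL14-KO libraries, whereas chr21:36257152-36258823 was listed at 0 in NTC and had 4749 and 2823 in METTL14-KO.

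Among 12 megakaryocytic and myeloid factors, 8 were marked in all 3 NTC libraries, 7 lacked any METTL14-KO peak (87.5%, beside 73.3% over all genes), and MAFG had one in both libraries. In the test 9 of 10 regions were lower and none was higher, beside 75.8% lower over all promoter regions. GATA2, which acts before GATA1 in progenitors (chr3:128211440-128213452), had 7851, 10401 and 10363 against 0 and 0. MAFG, a partner of NFE2 (chr17:79885551-79886642), had 6128, 8479 and 8519 against 660 and 230 (log2 change -4.17, SE 0.49, adjusted p = 0.00126), so that it was kept but lower. FLI1, the ETS factor of megakaryocytes (chr11:128554329-128556264), had a listed peak of 41598 in NTC replicate 2 alone, 0 in the other NTC libraries, and 8384 and 6157 in METTL14-KO. Its NTC values enclosed the METTL14-KO values (log2 change 4.41, SE 3.77, adjusted p = 0.314), and without NTC replicate 2 the change was 7.76 (adjusted p = 8.88e-05), so that a single control list decided the call at this start. At another FLI1 start, chr11:128564532-128566027, the NTC libraries were listed at 0 and METTL14-KO had 11234 and 9688 (log2 change 8.41, adjusted p = 6.80e-06). That start entered the test only through the METTL14-KO libraries, so its call follows from the filter.

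Of 25 heme synthesis and iron genes, 16 were marked in all 3 NTC libraries, 10 lacked any METTL14-KO peak (ALAD, FECH, ABCB10, SLC25A37, STEAP3, VDAC1, TSPO and GLRX5 among them), SLC25A38 and SLC25A39 had one in a single library, and 4 had one in both (UROS, UROD and PPOX among them). The lost share was 62.5%, beside 73.3% over all genes, and the 4 kept in both stand beside 13.1%. In the test 14 of 21 regions were lower and 2 higher, beside 75.8% lower over all promoter regions. PPOX, which oxidises protoporphyrinogen, had 14625, 9984 and 15114 against 892 and 130 (log2 change -5.08, SE 0.83, adjusted p = 0.00422). FECH, which inserts iron into protoporphyrin (chr18:55251964-55253833), had 9560, 7797 and 11310 against 0 and 0 (log2 change -8.27). Within this pathway, the mark was thus lower at PPOX and unlisted at FECH. SLC25A38, the mitochondrial glycine carrier, had 14635, 16095 and 15784 against 709 and 0 (log2 change -6.68, SE 1.44, adjusted p = 0.0114). At UROD, the decarboxylase of uroporphyrinogen, the region chr1:45476785-45477903, which it shares with HECTD3, was listed at 0 in NTC and had 4096 and 2275 in METTL14-KO, and the region chr1:45479618-45480359 had 404, 796 and 702 in NTC and 0 in METTL14-KO.

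Of 26 red cell membrane and surface genes, 9 were marked in all 3 NTC libraries (GYPC, EPB41, EPB42, ADD1, TMOD1, KEL, XK, BSG and EPOR) and none of them had a METTL14-KO peak, beside 73.3% lost over all genes. In the test 9 of 13 regions were lower, beside 75.8% of all promoter regions. RHCE, a blood group antigen (chr1:25756704-25757785), was marked in NTC replicate 1 alone, at 12614, and had 3819 and 2291 in METTL14-KO, which did not pass (adjusted p = 0.312). EPB42, which binds band 3 to the membrane skeleton (chr15:43512462-43513549), had 1949, 3520 and 3145 against 0 and 0 (log2 change -6.51, SE 0.31, adjusted p = 4.81e-05). ANK1, the ankyrin of the red cell, was the 1 region that passed as higher, with 0 in NTC and 6298 and 2972 in METTL14-KO. Its call follows from the filter, since only the METTL14-KO libraries had a peak. Of 9 globin and globin chaperone genes, 1 was marked in all 3 NTC libraries and it had no METTL14-KO peak.

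Among 21 cytokine receptor and JAK-STAT genes, 11 were marked in all 3 NTC libraries, of which 8 (72.7%, beside 73.3% over all genes) had no METTL14-KO peak, TYK2 had one in replicate 1, and JAK1 and STAT5B in both. In the test 10 of 16 regions were lower and 1 higher, beside 75.8% lower over all promoter regions. EPOR, the erythropoietin receptor (chr19:11493627-11495110), had 8281, 7713 and 9594 against 0 and 0 (log2 change -8.11, SE 0.15). TYK2, a Janus kinase, had 19484, 19389 and 19615 against 4396 and 0. The 2 METTL14-KO libraries disagreed at TYK2 and the change did not pass (log2 change -5.72, SE 2.25, adjusted p = 0.0759), although both lay below NTC. Without METTL14-KO replicate 1 it was -9.31 (adjusted p = 1.92e-05), and without replicate 2 it was -2.14 (adjusted p = 0.000189). In both fits the spread comes from the NTC libraries alone, so that the disagreement between the METTL14-KO libraries is left out by construction.

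Of 21 writers, erasers and readers of m6A, 10 were marked in all 3 NTC libraries, 7 lacked any METTL14-KO peak (METTL14, RBM15B, FTO, YTHDF1, YTHDC1, YTHDC2 and HNRNPC), METTL3 and METTL16 had one in a single library and IGF2BP3 in both. The lost share of 70% was near the 73.3% over all genes. In the test 10 of 17 regions were lower and 4 higher, beside 75.8% and 9.54% of all promoter regions. METTL3, the catalytic subunit (chr14:21978047-21980079), had 6578, 9224 and 10067 against 400 and 0 (log2 change -6.21, SE 1.22, adjusted p = 0.00807). WTAP, the adaptor (chr6:160146856-160148382), had 7399 and 11067 in NTC replicates 1 and 2 and 0 in NTC replicate 3 and both METTL14-KO libraries (log2 change -5.47, SE 2.98, adjusted p = 0.165). Without NTC replicate 3 the WTAP change was -8.20 (adjusted p = 0.000178). A second WTAP region, chr6:160148738-160150453, had 14470 in NTC replicate 1, 213 in METTL14-KO replicate 1 and 0 in the other libraries, and did not pass (adjusted p = 0.694). Peaks in METTL14-KO alone were listed at VIRMA and ZC3H13, both writer subunits, and at the reader IGF2BP1. ZC3H13 (chr13:46626792-46627186) was at 0 in NTC and had 1533 and 1264 in METTL14-KO.

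Of 26 H3K4 methyltransferases and cofactors, 22 were marked in all 3 NTC libraries, and 15 (68.2%, beside 73.3% over all genes) lacked any METTL14-KO peak, among them SETD1A, KMT2D, RBBP5, WDR5 and CXXC1. KMT2B, KMT2C and DPY30 had one in a single library, and SETD1B, ASH2L, WDR82 and MEN1 in both. In the test 17 of 23 regions were lower and 2 higher, near the 75.8% lower over all promoter regions. SETD1A (chr16:30968370-30969047) had 1192, 827 and 903 against 0 and 0 (log2 change -5.01, SE 0.23, adjusted p = 4.63e-05). KMT2D, which methylates H3K4 at enhancers (chr12:49454137-49455468), had 3680, 3892 and 3987 against 0 and 0 (log2 change -6.98, SE 0.12, adjusted p = 6.80e-06). MEN1, the menin scaffold of the KMT2A and KMT2B complexes (chr11:64577502-64578490), had 6095, 6296 and 6613 against 1199 and 103 (log2 change -3.97, SE 1.01, adjusted p = 0.0200). MEN1 was lower in both libraries, but its call was lost without any single NTC library (adjusted p from 0.0597 to 0.0651). KMT2B had 7051, 8532 and 12096 against 2388 and 0 and did not pass (log2 change -5.05, SE 1.99, adjusted p = 0.0767). KMT2A (chr11:118305995-118307211) was at 0 in NTC and had 12812 and 9913 in METTL14-KO. Of 10 H3K4 demethylases, 7 were marked in all 3 NTC libraries, 6 lacked any METTL14-KO peak and 1 had one in both, with 7 of 8 regions lower and 1 higher.

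Housekeeping promoters lost the mark as well. Of 78 ribosomal protein genes, 60 were marked in all 3 NTC libraries, and 33 of these (55.0%) had no METTL14-KO peak, 12 had one in a single library and 15 in both, beside 73.3% without a peak over all genes. Of 74 tested regions 60 were lower and 5 higher, beside 75.8% and 9.54% of all promoter regions. RPL10A, of the large subunit (chr6:35435597-35436690), had 7720, 8049 and 9743 against 2213 and 650 (log2 change -2.78, SE 0.57, adjusted p = 0.00971), and its change was 0.75 after centring on the regions shared by all 5. RPS25, of the small subunit (chr11:118888644-118889728), was at 0 in NTC and had 10110 and 7331 in METTL14-KO. A METTL14-KO peak without an NTC peak was also listed at RPS6, RPL4, RPL22 and RPL37A.

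Of 59 respiratory chain genes, 39 were marked in all 3 NTC libraries, with 20 (51.3%) lost, 10 kept in a single METTL14-KO library and 9 in both. In the test 37 of 52 regions were lower and 8 higher, beside 75.8% and 9.54% of all promoter regions. SDHD, a membrane anchor of complex II (chr11:111957404-111957815), was at 0 in NTC and had 1766 and 984 in METTL14-KO. The shares lost in both lists lie under the 73.3% over all genes, which describes the lists and was not tested.

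A further 3 lists were counted. They stand beside 73.3% lost and 13.1% kept in both over all genes, and 75.8% lower and 9.54% higher over all promoter regions. Of 24 poly(A) binding and mRNA processing genes, 12 were marked in all 3 NTC libraries, 10 lacked any METTL14-KO peak and none had one in both, with 11 of 21 regions lower and 4 higher. PABPC1, the cytoplasmic poly(A) binding protein, had 6550, 6686 and 7517 against 413 and 0 (log2 change -5.89, SE 1.21, adjusted p = 0.00969). Of 35 cell cycle genes, 22 were marked in NTC, 15 were lost and 2 kept in both, with 18 of 30 regions lower and 3 higher. Of 22 apoptosis genes, 15 were marked in NTC, 10 were lost and none was kept in both, with 14 of 18 regions lower and 2 higher.

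The strongest NTC promoters without any METTL14-KO peak belonged to TIAM1, SLFN14, NCR1, FGD4 and HLA-DRB1. TIAM1, an exchange factor for RAC (chr21:32714602-32716589), had 26531, 25063 and 29290 in NTC. SLFN14, a ribosome-associated nuclease known from platelet disorders, had 24216, 24583 and 29048. NCR1, an activating receptor of natural killer cells, had 23950, 22803 and 28288, FGD4, an exchange factor for CDC42, had 22151, 23154 and 28540, and HLA-DRB1, a class II antigen-presenting chain, had 22773, 23586 and 27468. All 5 were chosen for being listed at 0 in both METTL14-KO libraries, so that their lower calls in the test follow from the choice. Where replicate 1 alone kept a peak, the 3 strongest NTC promoters were LYN, with 27469, 27448 and 30637 against 730 and 0, ADARB1, with 27261, 26512 and 30051 against 513 and 0, and COL18A1, with 27307, 23960 and 28861 against 548 and 0. Where replicate 2 alone did, they were SLC37A1, with 27076, 26126 and 29588 against 0 and 126, UBE4B, with 23409, 20253 and 25842 against 0 and 410, and RFC4, with 18723, 18776 and 19322 against 0 and 1271. In each of these 6 the single remaining peak lay far below every NTC value. RFC4 passed (log2 change -6.57, adjusted p = 0.0210), but not without any 1 of the NTC libraries (0.0619 to 0.0667).

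Peaks were also listed in METTL14-KO where NTC had none. Of the 2710 regions called in both METTL14-KO libraries, 1479 (54.6%) had no NTC peak, 893 (33.0%) had one in all 3 NTC libraries and 338 (12.5%) in 1 or 2. The share without an NTC peak was 47.9% of the 5131 regions of replicate 1 and 55.6% of the 3016 of replicate 2. It was 45.4% in the lowest decile of these regions by METTL14-KO signal and 66.8% in the highest (271 regions each), so that it was not limited to weak peaks. The 1479 regions had a median width of 627 bp, 80.9% were promoters of protein-coding genes, and 9.60% had an NTC peak within 1 kb, against 40.0% of lost regions that had another NTC peak within 1 kb. At the 1197 of them over protein-coding promoters the nearest NTC peak was a median of 10511 bp away. Counted by genes, 982 of the 2511 marked in both METTL14-KO libraries (39.1%) had no NTC promoter peak.

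The 5 promoters of highest METTL14-KO signal in this set lie on chromosome 9. CD274, the immune checkpoint ligand PD-L1 (chr9:5449731-5451594), had 35839 and 31872, with an NTC peak 607 bp away, and when peaks within 1 kb were merged its log2 change was 4.40 and did not pass (adjusted p = 0.238). HAUS6, of the augmin complex of the spindle, had 29465 and 24786. ERMP1, an ER peptidase, had 29111 and 21827, RLN2, the hormone relaxin, had 26721 and 22639, and NFIB, a transcription factor (chr9:14321902-14323865), had 26298 and 19428. In all 5 both METTL14-KO libraries were high and all NTC libraries were listed at 0. A 0 in these lists means that no peak of 150 to 2000 bp was listed. Whether wider NTC peaks, which none of the lists hold, lay over the METTL14-KO peaks was not tested.

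The regions of METTL14-KO replicate 2 were mostly a subset of those of replicate 1, whose list was longer. Of replicate 2's regions 89.9% were shared with replicate 1, while 52.8% of replicate 1's were shared with replicate 2, and for genes the shares were 94.3% and 58.9%. At the 2710 shared regions replicate 2 had a median of 57.9% of the signal of replicate 1 (interquartile range 38.9% to 79.8%), and replicate 1 was higher at 2372 (87.5%). Regions called in replicate 1 alone were weak there, with a median signal of 590 at 2421 regions against 1967 at the shared ones. Of these 2421, 1107 were called in all 3 NTC libraries and 980 in none. Regions of replicate 2 alone had a median of 408 at 306 regions against 1041. Among the 1000 strongest peaks of replicate 2, 74.9% lay in a region that held one of the 1000 strongest of replicate 1. Over the 893 regions called in all libraries, Pearson's r of log2 signal was 0.784 between the METTL14-KO libraries, 0.938 to 0.946 between NTC libraries, and 0.584 and 0.598 between NTC replicate 1 and the METTL14-KO libraries. These are correlations across regions, which are not independent replicates.

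The METTL14-KO peaks were spread unevenly over the chromosomes. Regions called in both METTL14-KO libraries numbered 385 on chromosome 6, or 46.1 per 100 NTC regions there (835), and 37.9 per 100 on chromosome 21 and 30.9 on chromosome 15. They numbered 3 on the X chromosome, or 0.668 per 100 (449 NTC regions), 3 on chromosome 18 (1.46 per 100), 8 on chromosome 22 (2.00), 24 on chromosome 16 (3.17) and 32 on chromosome 7 (4.18). The median NTC signal was 3407 on chromosome 6, 2588 on 7, 2158 on 16 and 1140 on X. In the highest decile of NTC signal, 53.8% of those on chromosome 6 (173 regions) were kept in both METTL14-KO libraries, against 20% on chromosome 4 (50 regions) and 13.8% on chromosome 5 (29 regions). The X chromosome lost the peak at 100% of its NTC regions, none of which lay in the highest decile. Its median NTC signal falls in decile 3, of which 98.7% had no METTL14-KO peak over all chromosomes.

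**Figure D5:**
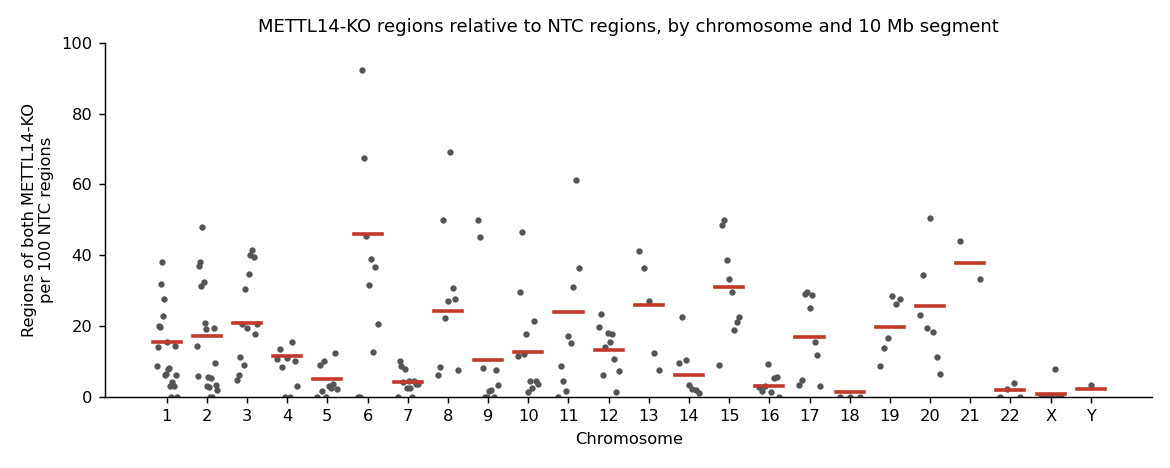
Regions called in both METTL14-KO libraries per 100 regions called in all 3 NTC libraries, by chromosome (lines) and by 10 Mb segment with at least 30 NTC regions (points). Among chromosomes, chromosome 6 is highest at 46.1 and the X chromosome lowest at 0.668.

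The spread was uneven within chromosomes too. Of 211 segments of 10 Mb with at least 30 NTC regions, the median held 9.23 such METTL14-KO regions per 100 NTC regions (interquartile range 3.06 to 22.7), and 29 segments with 1437 NTC regions held none. The highest was chromosome 6 from 20 to 30 Mb, with 109 regions called in both METTL14-KO libraries beside 118 NTC regions (92.4 per 100), of which 35 were kept and 62 had no NTC peak. The neighbouring 30 to 40 Mb had 67.3 per 100, chromosome 8 from 90 to 100 Mb had 69.2, chromosome 11 from 110 to 120 Mb, which holds ALG9, DIXDC1, KMT2A and RPS25, had 61.3, and chromosome 20 from 30 to 40 Mb had 50.5. These 5 segments held 339 (12.5%) of the METTL14-KO regions and 3.02% of the NTC regions. Replicates 1 and 2 shared the distribution, with Pearson's r of 0.932 between their log2 region counts over the 211 segments, and the METTL14-KO share went with the median NTC signal of a segment (Spearman's rho 0.621). Both are descriptions over segments of the same libraries.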

How the data were processed

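H3K4me3 CUT&RUN was analysed in 3 NTC and 2 METTL14-KO HEL libraries, grouped by the sample labels. The authors aligned paired reads to hg19 with Bowtie and to the sacCer3 yeast spike-in, removed duplicates with Picard (versions not given in the sources used here), calibrated each library by the spike-in and called peaks per library. The deposited lists hold position and signal, in calibrated coverage units. Starts were taken as counted from 0, an assumption. Depth is unknown, the lists hold no counts, and the number of libraries limits precision.

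Peaks sharing at least 1 bp were merged. Summed signal of regions with a peak in 2 or more libraries was tested with limma 3.58.1 (R 4.3.3, trend, Benjamini-Hochberg at 0.05) after log2 transformation, with the lowest signal of any region, 30.8, as the pseudocount and 3 residual degrees of freedom. Adjusted p-values are from limma over 22063 regions. Where a library was left out or a setting changed, they are from limma over the regions of that fit. On this scale the change of weak regions is understated. This fit was run beforehand on simulated data with normal noise of a single spread, in which every library had a value at every region. The peak lists hold many regions without a peak in a library, so the simulation could not show how the fit behaves on them. For library values, two-sided exact permutation tests were used (scipy 1.17.1). Genes came from GENCODE 44 on hg19, with a promoter window of 1 kb, and 2 of 424 symbols in 19 lists did not match. A gene's region was the one within 1 kb of a start with the highest mean signal. Named were the described lists' members, METTL14, METTL3, WTAP, the 5 strongest promoters lost, kept and called in METTL14-KO alone, and the 3 strongest kept in each METTL14-KO library alone. The 5 kept regions with higher METTL14-KO signal and both regions outside promoters were named after their values were seen. Some members of the lists are counted but not reported by name here. The members and lists were chosen with earlier results of these data known. Alternatives were the pseudocount, region filter, centring, highest peak, step scale, peak threshold, an equal number of peaks, merging within 1 kb, overlap, promoter window, replicate block and leaving out each library. Python 3.11.15, pandas 2.3.3, numpy 2.4.6, pysam 0.24.0 and matplotlib 3.10.9 were used.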

Additional observations from a re-analysis of the deposited data

How the results depend on the processing

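Of 840 alternative values, 108 concerned the comparisons. Of these, 92 counted as the same, 12 were shares that moved, 4 were counts of higher regions that fell, and 0 reversed. A library measure counted as the same if it kept its direction, whatever its size. A share did so if it moved by less than the SD between the METTL14-KO libraries, and a count of regions if it stayed near the main count. Of 732 values at 48 named regions 671 were unchanged in direction and call, 39 gained a call, 19 lost it and 3 reversed. The reversals came with centring on the regions called in all libraries, which moved the median log2 change from -5.38 to -1.84 and gave RANBP6 1.79, PRDM10 1.85 and RPL10A 0.75, with 10795 regions lower and 1667 higher. The share of NTC regions without a METTL14-KO peak was 98.5% when a shared region had to be covered by 50% or more, 95.3% with a threshold that dropped peaks weaker than the NTC median, 94.5% when a peak missing in either METTL14-KO library counted, and 55.7% when each library was cut to its 3169 strongest peaks (87.4% to 94.0% leaving out 1 library). The share of METTL14-KO regions without an NTC peak was 45% with merging within 1 kb, 48.9% for regions of either library and 65.6% with the threshold (48.2% to 57.8%). The share of genes without a METTL14-KO peak was 92.9% with the threshold and 47.5% with equal peak numbers (72.9% to 86.1%). METTL14-KO then marked 99.7% as many genes as NTC, against 36.2% with all peaks. Against NTC, peak number was 9.75% with the threshold (14.5% to 24.2% leaving out 1 library), covered bases 6.85% (8.32% to 14%), width 67.0% (52.1% to 52.7%), median signal 62.5% (43.7% to 49.8%) and genes 12.8% (27.8% to 44.6%). Signal at shared regions was 24.7% on the step scale (5.56% to 9.07%). Regions higher numbered 2 with a peak in at least 3 libraries (16762 tested), 2 where an NTC peak was required, an alternative chosen after seeing the data, and 2 to 1532 leaving out 1 library, with 2 without METTL14-KO replicate 1 and 15 without replicate 2, since the filter then leaves out regions of the remaining library alone. Regions lower ranged from 15314 to 17059.

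Same-numbered NTC and METTL14-KO libraries did not deviate together (correlations 0.0759 and 0.00207 over 22063 regions, 2 pairs) and the labels name no shared batch, so the numbers were not taken as pairing. With the replicate block, peak number was 18.7% of NTC, covered bases 10.8%, width 52.7%, signal 49.7%, genes 35% and shared-region signal 8.86%, with 16020 regions lower and 1401 higher. These percentages are geometric means over the 2 pairs. NTC replicate 3 has no METTL14-KO library of its number, so under the block it does not enter the estimates. MEN1 (adjusted p = 0.0629), RPL10A (0.0529) and RFC4 (0.0617) lost their calls under the block. WTAP gained one (log2 change -8.20, adjusted p = 0.00137, limma), its NTC library listed at 0 being replicate 3. The exact permutation p of 0.2 can pass no threshold, so it shows no stability. Depth is unknown, and a 0 means only that no peak was listed.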
